A study of Homo sapiens with 12 samples.

Results

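H3K27ac, the acetylation of histone H3 at lysine 27 that marks active promoters and enhancers, was compared directly between HCT116 cells given TNFα and HCT116 cells given cobimetinib. HCT116 is an established colorectal cancer cell line with constitutive MAPK signaling. Each treatment was represented by 2 H3K27ac CUT&RUN libraries, so 4 of the 12 libraries of the series entered the comparison: 2 from cells kept for 24 hours in TNFα at 100 ng/ml and 2 from cells kept for 24 hours in 1 μM cobimetinib. The 2 untreated H3K27ac libraries served as a reference for the same regions, and the IgG libraries were not analysed here. The study's methods list DMSO as a further treatment of these cells, but no DMSO library was analysed here. They describe the libraries as made from replicate treatments without saying whether these were separate cultures, so p-values measure only the spread between these libraries. In CUT&RUN, a nuclease bound to the antibody cuts out DNA around the mark, and those fragments are sequenced. The 20000 highest-scoring peaks of each of the 4 libraries were merged within 100 bp into 29944 regions. A library held a region if one of its 20000 peaks overlapped it. Of the 29944 regions, 2114 were held by both TNFα libraries and neither cobimetinib library (TNFα only), 1706 by both cobimetinib libraries and neither TNFα library (cobimetinib only), and 11418 by all 4 libraries (kept).

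The treatments act on signaling that meets at the same class of enhancers. Cobimetinib inhibits the kinase MEK1, which activates ERK, and ERK signaling raises the synthesis and stability of FOS-family and JUN-family proteins. These proteins form the dimeric factor AP1, which binds enhancers in many epithelial tumors. TNFα, an inflammatory cytokine, releases NF-κB from its IκB inhibitors and also activates JUN through the stress kinases. A direct contrast of both treatments therefore asks where chromatin is acetylated when this signaling is stimulated and where it is acetylated when MEK is inhibited.

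The sequences below are plus-strand stretches of hg38 from 4 leading regions of each treatment, shown because the share of regions with the AP1 word (TGACTCA or its reverse complement TGAGTCA) differed between the sides. They are examples chosen with the words known: in each treatment 3 follow the more common pattern and 1 goes against it. Of the 10 TNFα only regions with the best mean rank 7 held the word in 600 bp, and of the 10 such cobimetinib only regions 3 did. Capitals mark that word, the NF-κB consensus and the TEAD word (GGAATGT or its reverse complement ACATTCC). The first 5 stretches are from TNFα only regions: an intron of PHLDB2 at chr3:111923472-111923591, an intron of MIP at chr12:56461305-56461424, and an intron of CDK6 shown at its AP1 word (chr7:92642291-92642410) and at its NF-κB word (chr7:92641977-92642096), and, as the counterexample, the middle of the strongest peak in an intron of LMF1 (chr16:914638-914757), where no AP1 word was found. The last 4 are from cobimetinib only regions: the middles of the strongest peaks near ALPP (chr2:232385844-232385963), in an intron of NEDD4L (chr18:58270151-58270270) and near AXIN2 (chr17:65515970-65516089), none of which held an AP1 word in 600 bp, and, as the counterexample, an intron of GRIN2B at its AP1 word (chr12:13581130-13581249).
PHLDB2 intron: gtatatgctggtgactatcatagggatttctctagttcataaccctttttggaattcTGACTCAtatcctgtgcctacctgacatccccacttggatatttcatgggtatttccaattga
MIP intron: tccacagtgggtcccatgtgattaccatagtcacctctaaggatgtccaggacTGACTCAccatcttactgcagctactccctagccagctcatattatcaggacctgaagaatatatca
CDK6 intron, AP1 word: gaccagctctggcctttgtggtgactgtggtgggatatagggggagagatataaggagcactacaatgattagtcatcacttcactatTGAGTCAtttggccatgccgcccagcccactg
CDK6 intron, NF-κB word: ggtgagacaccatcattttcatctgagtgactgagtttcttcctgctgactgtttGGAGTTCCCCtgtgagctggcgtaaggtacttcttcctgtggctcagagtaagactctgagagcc
LMF1 intron: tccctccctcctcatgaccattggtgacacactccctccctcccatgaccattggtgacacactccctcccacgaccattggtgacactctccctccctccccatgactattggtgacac
near ALPP: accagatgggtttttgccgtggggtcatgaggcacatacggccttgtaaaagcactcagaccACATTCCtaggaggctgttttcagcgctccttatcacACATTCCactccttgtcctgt
NEDD4L intron: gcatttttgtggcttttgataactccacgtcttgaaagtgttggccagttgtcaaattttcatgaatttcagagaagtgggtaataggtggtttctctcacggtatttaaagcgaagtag
near AXIN2: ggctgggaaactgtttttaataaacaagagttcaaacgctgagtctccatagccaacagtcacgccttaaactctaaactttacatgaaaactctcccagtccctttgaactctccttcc
GRIN2B intron: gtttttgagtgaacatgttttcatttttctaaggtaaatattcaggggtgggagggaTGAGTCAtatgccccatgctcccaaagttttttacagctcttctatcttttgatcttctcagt

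The deposited lists held 115572 and 92711 peaks for TNFα replicates 1 and 2, and 106337 and 69813 for cobimetinib replicates 1 and 2. The lists do not give read depth, and a deeper library has higher scores, so libraries were compared by rank or after quantile normalization. The peak at rank 20000 scored 60 and 54 under TNFα and 63 and 58 under cobimetinib, and the next peak scored 60, 54, 62 and 58. Because scores near this limit were tied or nearly tied, presence near it is a matter of small steps: 110 TNFα only regions had a peak ranked within 25000 in both cobimetinib libraries, and 114 cobimetinib only regions had one in both TNFα libraries. Untreated replicate 2 stood apart from the other libraries. Its 20000 peaks had a median width of 380 bp against 922 bp to 1265.5 bp elsewhere, 7102 of its peaks were tied at the limiting score, and it held 11082 of the merged regions where untreated replicate 1 held 18736. Values in untreated cells are therefore given for each untreated library on its own. Among epithelial markers, start sites of EPCAM and KRT8 lay within 1 kb of a region held by all 4 treated libraries, those of KRT18 and CLDN4 of a region held by at most 3, that of KRT19 of a region held by 1, and CDH1 had none. Of 6 markers of blood, endothelial and stromal cells, COL1A1 had a region held by all 4 libraries, PECAM1 one held by 1, and the remaining 4 had none.

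Regions held under one treatment only outnumbered those shared by mixed pairs. TNFα only regions were 7.06% of all merged regions and cobimetinib only regions 5.7%. By comparison, the 4 mixed pairs, each made of 1 TNFα and 1 cobimetinib library, held alone 470 regions (1.57%, replicates 1 and 1), 407 (1.36%, replicates 2 and 2), 509 (1.7%, TNFα 1 with cobimetinib 2) and 372 (1.24%, TNFα 2 with cobimetinib 1). The mixed pairs describe how often libraries of unlike treatment share regions by themselves, and no p-value follows from them: with 2 libraries against 2, the smallest two-sided p of an exact permutation test is 0.333. When absence was made strict, with no peak of the other treatment within rank 40000, 845 TNFα only and 580 cobimetinib only regions were left, against 45 to 56 for the mixed pairs. With a single library for a treatment the counts rose, to 4528 and 4080 TNFα only regions without TNFα replicate 1 or 2, 4166 and 4182 cobimetinib only regions without cobimetinib replicate 1 or 2, and 2928 cobimetinib only regions without TNFα replicate 1. Among the 2114 TNFα only regions, 390 had no peak of any score in either cobimetinib library, and 237 of the 1706 cobimetinib only regions had none in either TNFα library.

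**Figure D1:**
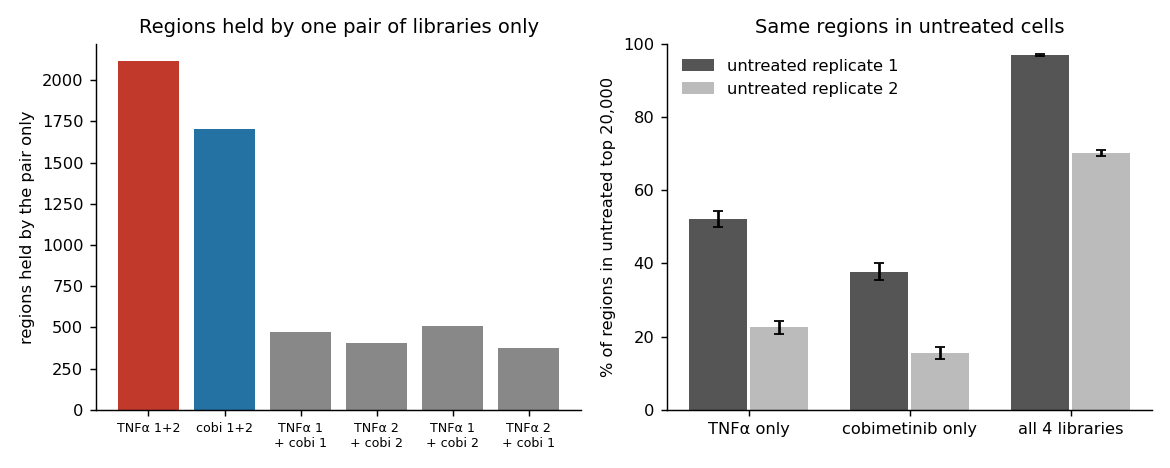
Left, number of merged regions (y axis) held by one pair of libraries and by neither of the other two, for the TNFα pair (2114), the cobimetinib pair (1706) and the 4 mixed pairs (372 to 509). Right, percent of TNFα only, cobimetinib only and kept regions that each untreated library also held among its 20000 highest peaks, with 95% Wilson intervals as error bars; both untreated libraries held more of the TNFα only than of the cobimetinib only regions.

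The best-ranked TNFα only regions were intronic or intergenic and ranked high in both TNFα libraries. A region about 10 kb from a start of AGO2, which encodes an Argonaute protein of the small-RNA pathway, ranked 83 and 49 under TNFα, 28257 and 32492 under cobimetinib, and 1165 and 852 in untreated cells. The intronic PHLDB2 region whose sequence is shown above (PHLDB2 encodes a protein that anchors microtubules at the cell cortex) ranked 93 in both TNFα replicates against 68635 and 61494 under cobimetinib, with 396 and 2967 in untreated cells. Its normalized score was higher under TNFα by 4.48 ± 0.34 on the log2 scale (SE, limma adjusted p = 0.00106). The untreated libraries thus sat nearer to TNFα than to cobimetinib at both of these regions. A 455-bp region in an intron of LMF1, which encodes a lipase maturation factor, ranked 236 and 312 under TNFα and had no peak in either cobimetinib library.

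Other leading TNFα only regions included introns and intergenic stretches. The intronic region of CDK6, a cyclin-dependent kinase of the G1 phase, ranked 1128 and 1097 under TNFα, had no peak under cobimetinib, and ranked 48948 in untreated replicate 1 with no peak in untreated replicate 2 (score difference 3.84 ± 0.36, adjusted p = 0.00217). It held both an AP1 and an NF-κB word. The intergenic region whose nearest start was that of HMGA2, a chromatin architectural protein, ranked 1393 and 405 under TNFα and 40662 and 29053 under cobimetinib, and held an NF-κB word and no AP1 word. A region 27 kb from F2RL1, a protease-activated receptor, ranked 1614 and 720 against 38695 and 31693. The MIP intron shown above ranked 755 and 631 under TNFα and had no peak under cobimetinib. In all of the TNFα only regions just named, the ranks of both treatments were far apart and did not overlap, which the choice of these regions fixes.

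The foremost cobimetinib only regions ranked lower than the foremost TNFα only regions. The region 6.5 kb from ALPP, which encodes a placental-type alkaline phosphatase, ranked 1219 and 514 under cobimetinib and had no peak in either TNFα library, with a rank of 21920 in untreated replicate 1 and no peak in replicate 2. Its score difference was -4.00 ± 0.36 (TNFα minus cobimetinib, adjusted p = 0.00217). An intron of NEDD4L, a ubiquitin ligase that removes epithelial sodium channels from the cell surface, ranked 234 and 1974 under cobimetinib against 81348 and 62293 under TNFα, and 20434 and 85951 in untreated cells. At both regions untreated replicate 1 ranked between the treatments. Untreated replicate 2 lay with TNFα, having no peak at the ALPP region and a rank below both TNFα ranks at the NEDD4L region. A region over a start site of ABLIM1, an actin-binding protein, ranked 1008 and 916 under cobimetinib and 25479 and 33365 under TNFα, and an intronic RRM2 region 1.5 kb from a start of this ribonucleotide reductase subunit ranked 1081 and 5075 against no peak and 83800.

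Further leading cobimetinib only regions had no peak or low ranks under TNFα. The region 42 kb from AXIN2, a negative regulator and common target of Wnt signaling, ranked 3686 and 3258 under cobimetinib, had no peak under TNFα, and was absent from the top 20000 peaks of both untreated libraries (no peak, and rank 39137). Its score difference was -3.17 ± 0.38 (adjusted p = 0.00586). An intron of GRHL2, an epithelial transcription factor, held a region of ranks 4108 and 2165 under cobimetinib and 80865 and 72027 under TNFα (-2.81 ± 0.37, adjusted p = 0.00688). In the intron of GRIN2B shown above, a gene for a glutamate receptor subunit, a region ranked 1203 and 1994 against 28153 and 32209.

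**Figure D2:**
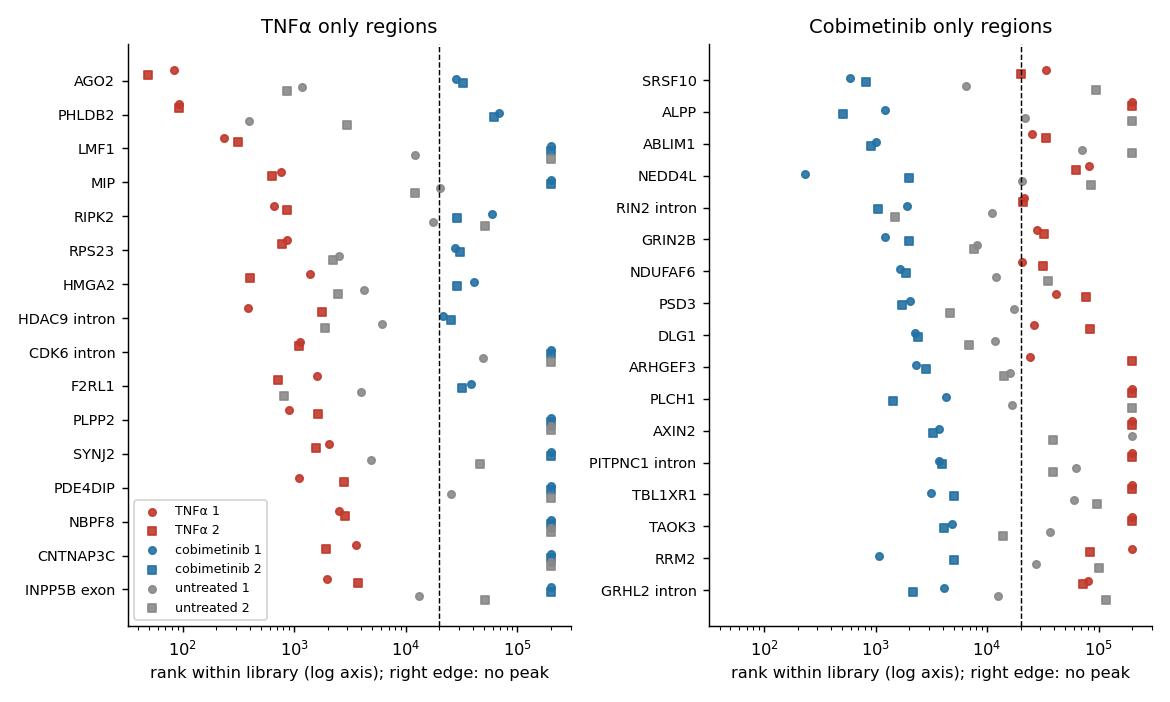
Rank of each leading region (x axis, log scale, rank 1 is the highest peak) in each library, for TNFα only regions (left) and cobimetinib only regions (right), labelled on the y axis by the nearest gene or the gene whose intron or exon holds the middle of the region. Circles are replicate 1 and squares replicate 2; points at the right edge stand for no peak, and the dashed line is rank 20000. The untreated points of the TNFα only regions spread from ranks near the TNFα points (AGO2, F2RL1) to no peak (NBPF8, CNTNAP3C).

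A test of the difference in score was made with limma across all 29944 regions, in which a library without a peak received the lowest score, 20. Of these, 928 were higher under TNFα (3.1%) and 404 higher under cobimetinib (1.35%) at an adjusted p under 0.05. Of the 928, 604 were TNFα only regions and 202 were kept regions, and 279 of the 404 were cobimetinib only and 81 kept. Presence and the limma test use the same peak scores, so the choice of side regions by itself favors calls there. The p-values given for side regions are therefore no separate support for their difference. Of the calls, 404 higher under TNFα and 177 higher under cobimetinib had at least 1 library with no peak, and therefore a filled-in score; the fit limited to the 21428 regions with a peak in all 4 lists called 1208 and 775. The number of calls rested on how variance was shared between regions. With a constant prior variance in place of a trend limma called 0 regions in either direction (3684 and 3200 at an unadjusted p under 0.05). With cobimetinib replicate 1 or 2 left out, 10 or 11 regions were called higher under TNFα, and with TNFα replicate 1 or 2 left out, 4 or 1 were called higher under cobimetinib, so that 0 of the calls were made in all 4 fits with a library left out. Every one of the 928 and 404 kept its sign in those 4 fits. Those fits reuse libraries on which the calls were made, so the choice of regions largely fixes the sign. The kept sign is therefore no separate support. Because the number of calls moved this much, ranks are given before each test.

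The side regions were mostly distal, and with all 4 libraries more so under TNFα. Of the TNFα only regions, 302 (14.3%, 95% Wilson interval 12.9 to 15.8) were at a start of a protein-coding transcript, meaning within 1 kb of it, compared with 407 of the cobimetinib only regions (23.9%, 21.9 to 25.9), 52.2% of kept regions and 31.7% to 46.0% of the mixed-pair regions. This order rested on cobimetinib replicate 2: without it the shares were 23.1% of TNFα only and 22.3% of cobimetinib only regions, whereas without TNFα replicate 1 they were 14.1% and 35.9%. They were 6.86% and 13.3% under strict absence and 19.9% and 40.2% with 10000 peaks per library. Distal TNFα only regions were also farther from starts, with a median distance of 31.5 kb against 24.9 kb, and their sequence was poorer in G and C (median 42.8% against 46.7% in both cobimetinib only and kept regions). These intervals cover counting error alone, since neighboring regions are not independent. In kept regions the same order was seen by rank. Both TNFα ranks were better than both cobimetinib ranks at 2635 kept regions (23.1%), of which 33.3% (31.5 to 35.1) were at start sites. Both cobimetinib ranks were better at 3119 kept regions (27.3%), of which 57.7% (56.0 to 59.4) were at start sites, close to the share among kept regions with overlapping ranks (57.9%).

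AP1 words separated the sides. Within 600 bp at the middle of the strongest peak, 55.8% (53.5 to 58.1) of 1812 distal TNFα only regions held TGACTCA or TGAGTCA, against 28.8% (26.4 to 31.3) of 1299 distal cobimetinib only regions, 46.9% (45.6 to 48.2) of kept distal regions and 40.7% of all distal regions. The mixed pairs ranged from 29.1% (23.9 to 34.9, replicates 2 and 2) to 43.9% (38.2 to 49.8, replicates 1 and 1). The lowest of them thus matched the cobimetinib only share within its interval, while all lay below the TNFα only interval. At least 2 AP1 words were found in 14.3% of distal TNFα only regions, 3.31% of cobimetinib only regions and 11.2% of kept regions. A control word with the same letters in another order (ACTCAGT or ACTGAGT) was found in 12.6%, 8.01% and 10.1% of TNFα only, cobimetinib only and kept distal regions. Even at start sites the AP1 word was more frequent on the TNFα side, in 18.9% (14.9 to 23.7) of 302 regions against 10.3% (7.73 to 13.7) of 407.

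The share of distal regions with an AP1 word rose with the score difference. Over 10 bins of equal size it was 24.5% in the bin with the most negative differences and 57.8% in the bin with the most positive, although the rise was broken in the eighth bin (39.1%, after 48.7% in the seventh). Within kept distal regions, where every library had a peak in its top 20000, the share still went from 41.5% (37.4 to 45.7) in the first bin to 59.3% (55.2 to 63.4) in the last. The median G and C content fell over the same bins of kept regions, from 49.2% to 43.7%. Its part in the rise was not tested. Over all distal regions the control word went from 8.73% (7.55 to 10.1) in the first bin to 13.6% (12.1 to 15.2) in the last, and the NF-κB word from 7.53% (6.44 to 8.80) to 11.6% (10.3 to 13.1), so that both were also more frequent at the TNFα end. Within kept distal regions their first and last bins overlapped in their intervals, at 9.51% and 10.99% for the control word and 11.7% and 9.89% for NF-κB.

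**Figure D3:**
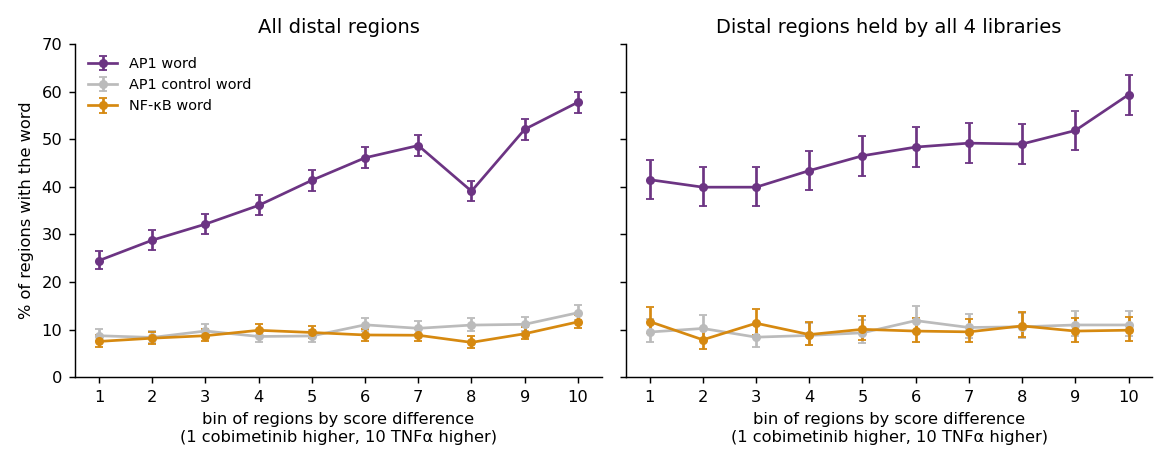
Percent of distal regions (y axis) holding the AP1 word, its control word or the NF-κB word in 600 bp, over 10 equal bins of the TNFα minus cobimetinib score difference (x axis), with 95% Wilson intervals as error bars. The AP1 share goes from 24.5% to 57.8% over all distal regions (left) and from 41.5% to 59.3% over kept distal regions (right), while over all distal regions the control share goes from 8.73% to 13.6% and the NF-κB share from 7.53% to 11.6%.

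The NF-κB consensus differed less between the sides. It was found in 10.8% (9.42 to 12.3) of distal TNFα only regions, 8.47% (7.07 to 10.1) of distal cobimetinib only regions and 9.96% of kept distal regions, with overlapping intervals, while its letters in reverse order were found in 7.56%, 11.2% and 9.19%. Without TNFα replicate 1 the shares of the consensus were 8.69% on the TNFα side and 8.80% on the cobimetinib side. Among distal regions called by limma the consensus was present in 13.3% (11.2 to 15.7) of 878 that were higher under TNFα and 6.69% (4.50 to 9.83) of 344 that were higher under cobimetinib. The ETS word CCGGAAG, bound by a family that includes direct ERK substrates, was rarer in distal TNFα only regions (2.32%, 1.72 to 3.12) than in distal cobimetinib only (5.00%, 3.95 to 6.33) or kept regions (5.02%). The TEAD word was present in 13.4% and 15.8% of distal TNFα only and cobimetinib only regions, and in 20.9% (16.96 to 25.5) of the 344 distal regions called higher under cobimetinib against 13.3% (11.2 to 15.7) of the 878. Both strands were searched for every word, words may overlap each other, and a match describes letters in the window and not binding.

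Untreated cells shared more with the TNFα side. Untreated replicate 1 held 52.2% of TNFα only regions and 37.7% of cobimetinib only regions among its 20000 peaks, and 97.1% of kept regions. In untreated replicate 2, the library that stood apart, the shares were 22.5%, 15.5% and 70.2%. Neither untreated library held 41.6% of the TNFα only and 55.6% of the cobimetinib only regions. By rank, untreated replicate 1 was at or above the weaker TNFα library at 24.4% of TNFα only regions, between the treatments at 57.5%, and at or below the stronger cobimetinib library at 18.1%. At cobimetinib only regions it was at or above the weaker cobimetinib library at 18.1%, between at 53.1%, and at or below the stronger TNFα library at 28.8%. Untreated replicate 2 ranked lower at both sides: at TNFα only regions it was at or above the weaker TNFα library at 14.9%, between at 20.3% and at or below the stronger cobimetinib library at 64.8%, and at cobimetinib only regions the shares were 11.7%, 12.8% and 75.4%. With and without an AP1 word the intervals overlapped on the TNFα side: untreated replicate 1 held 50.1% (47.1 to 53.2) of distal TNFα only regions with the word and 48.3% (44.9 to 51.8) of those without it, and untreated replicate 2 held 22.4% and 22.2%. Of distal cobimetinib only regions, untreated replicate 2 held 21.9% (18.03 to 26.4) with the word and 13.5% (11.5 to 15.9) without it, and untreated replicate 1 held 36.4% (31.6 to 41.4) and 30.5% (27.6 to 33.5).

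Kept regions included large shifts in rank as well; those named here were chosen by their p-values. A region in an intron of WNT9A, which encodes a Wnt ligand, ranked 19 and 38 under TNFα, 3258 and 6410 under cobimetinib, and 271 and 1857 in untreated cells (score difference 2.52 ± 0.30, adjusted p = 0.00586). An intergenic region whose nearest start was that of CREB1 ranked 64 and 74 against 10643 and 10174. In an intron of RUNX1, a transcription factor, a kept region ranked 194 and 539 under TNFα and 11729 and 15085 under cobimetinib. In the other direction, a region 46 kb from ELF3, an epithelial ETS factor, ranked 425 and 265 under cobimetinib, 12905 and 16951 under TNFα, and 8447 and 9664 in untreated cells (-2.51 ± 0.32, adjusted p = 0.00607). A TNFα only region over a start of ELF3 ranked 10706 and 18165 under TNFα and 79232 and 39028 under cobimetinib (limma adjusted p = 0.124). Also higher under cobimetinib, a kept region in an intron of MACROH2A1, a histone variant, ranked 353 and 195 under cobimetinib and 11644 and 8484 under TNFα. A kept region at a start site of BOD1L1 ranked 702 and 932 against 11773 and 11965. Ranks of both treatments did not overlap at any of these regions, which their choice by p-value favors. They also did not overlap at 23.1% (TNFα better) and 27.3% (cobimetinib better) of all kept regions. The same share was not computed for mixed pairs, so these percentages have no gauge of noise beside them.

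Genes were assigned to regions within 50 kb of any start. Of 19676 protein-coding genes, 2630 had a TNFα only region within that distance (13.4%), 2659 a cobimetinib only region (13.5%), and 469 both. Proximity does not show that a region regulates a gene, and some regions lay closer to a start of another gene. Within 20 kb the background shares were 6.99% and 6.97%, and within 100 kb 22.5% and 22.3%. The 17 gene lists were chosen with earlier results of these data known, so that their counts are read beside these background shares and carry no test. Most lists also lay in denser surroundings. The median number of merged regions within 50 kb was 2 for all genes. It was 6 for the AP1 and keratin lists, 5.5 for EGFR, 5 for TNF receptor, 4.5 for NF-κB and 4 for ERK genes. More regions nearby leave more room for a region of either side.

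Among 27 chemokine and cytokine genes, 5 had a TNFα only region nearby (18.5%, against 13.4% of all genes) and 2 a cobimetinib only region (7.41%, against 13.5%). Within 20 kb the counts were 2 and 2 (7.41% each), and within 100 kb 7 and 3 (25.9% and 11.1%). A region 3.6 kb from CCL20, a chemokine that attracts lymphocytes and dendritic cells, ranked 2781 and 2789 under TNFα, 24677 and 33031 under cobimetinib, and 8200 and 3465 in untreated cells, and held an NF-κB word (score difference 2.11, adjusted p = 0.0120). CXCL8, which encodes the neutrophil attractant interleukin-8, had 3 such regions, of which the one at its start ranked 9110 and 9662 under TNFα and 33636 and no peak under cobimetinib (adjusted p = 0.0512). The region near CSF2, the growth factor GM-CSF, ranked 6361 and 12840 and had no peak in any cobimetinib or untreated library. One region was shared by IL1A and IL1B.

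Among 14 NF-κB subunits and inhibitors the order was the other way, with 3 genes on the TNFα side (21.4%) and 5 on the cobimetinib side (35.7%). On the TNFα side TNFAIP3, a deubiquitinase that limits NF-κB, had 3 regions, the best ranking 8625 and 2906 against 27437 and no peak, and TNIP1, its binding partner, had 2, of which the one at its start ranked 6363 and 8778 with no peak under cobimetinib (adjusted p = 0.0124). NFKBIE, an IκB protein, had a region on each side. The cobimetinib side held regions near the subunits NFKB2 and RELA and near NFKBIZ and TNIP2. The region 25 kb from NFKB2, in an exon of the neighboring gene GBF1, ranked 1421 and 4102 under cobimetinib and 24899 and 20109 under TNFα (adjusted p = 0.0198), whereas the region near RELA ranked 12456 and 14356 with no peak under TNFα (adjusted p = 0.0528).

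TNF receptor and cell death genes were found on both sides, with 9 of 29 near TNFα only (31.0%) and 6 near cobimetinib only regions (20.7%). SOD2, a mitochondrial superoxide dismutase, had 2 TNFα only regions and TRAF1, an adaptor of TNF receptors, had 1 at its start, with ranks of 14169 and 18990 and no peak in any cobimetinib or untreated library. TRAF3, a restraint on noncanonical NF-κB signaling, had 1 TNFα only and 2 cobimetinib only regions in its introns, and the stronger of the latter ranked 8391 and 4271 with no peak under TNFα (adjusted p = 0.0101). Near GADD45B, a stress-response gene, 2 cobimetinib only regions lay in introns of GNG7, and a kept region ranked 211 and 274 under cobimetinib against 5687 and 3423. Of 22 antigen presentation and interferon genes, 2 were near a TNFα only (9.09%) and 3 near a cobimetinib only region (13.6%). A TNFα only region 38 kb from HLA-E, a class I molecule recognized by natural killer cells, lay closer to a start of GNL1 (27 kb). It ranked 1729 and 3659 against no peak and 31720 and held an NF-κB and an AP1 word (limma adjusted p = 0.00996).

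Genes of the MAPK pathway were found on both sides, and their order depended on the distance. Within 50 kb the TNFα only and cobimetinib only counts were 5 and 3 of 22 ERK feedback inhibitors and targets (22.7% and 13.6%). They were 3 and 1 of 14 AP1 and MAF genes (21.4% and 7.14%), and 5 and 3 of 14 EGFR-family genes and ligands (35.7% and 21.4%). Within 100 kb they were 5 and 8 (22.7% and 36.4%), 6 and 6 (42.9% each), and 7 and 4 (50.0% and 28.6%), beside backgrounds of 22.5% and 22.3%. Near SPRY4, an inhibitor of receptor tyrosine kinase signaling, a TNFα only region with 2 AP1 words ranked 9114 and 5357 against 34091 and 30144, and a kept region 931 bp from its start ranked 2265 and 3657 under TNFα and 16179 and 17156 under cobimetinib, with 3382 and 2355 in untreated cells (adjusted p = 0.0336). FOSL1, an AP1 subunit induced by ERK, had a region 11 kb away that lay closer to a start of C11orf68 (5.3 kb). It ranked 7600 and 11622 under TNFα and 6380 and 9210 in untreated cells, with no peak under cobimetinib (limma adjusted p = 0.0217). AREG and EREG, adjacent genes for EGFR ligands, shared 2 TNFα only regions, and the stronger ranked 4119 and 12612 against 33638 and 69447. Cobimetinib only regions alone were found near VGF and the AP1 subunit gene JUNB, with 2 each, and near HBEGF, another EGFR ligand, with 1. The HBEGF region lay closer to a start of SLC4A9 (1.6 kb). SPRY2 also had cobimetinib only regions alone, with 1 at its start that ranked 16016 and 16174 against 21840 and 43619, near the rank limit.

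Adhesion, matrix and YAP-partner genes included several with high-ranking TNFα only regions. LAMB3, a laminin chain of the epithelial basement membrane, had 2 TNFα only regions, one of them at its start. SERPINB5, the serpin maspin, had a region of ranks 3707 and 3593 against 53054 and no peak (adjusted p = 0.00767), and CD44, a hyaluronan receptor, had 3 TNFα only and 1 cobimetinib only regions. WWTR1, which encodes the YAP partner TAZ, had 3 TNFα only regions, the first ranking 4078 and 2344 with no peak under cobimetinib (3.24, adjusted p = 0.00586), and 2 cobimetinib only regions, the stronger ranking 6460 and 3657 against 42246 and 62745 (adjusted p = 0.0155). NUAK2, a kinase induced by YAP, had 2 TNFα only regions. The integrin genes ITGA3 and ITGB4 were on the cobimetinib side, at 11703 and 4221 against 34857 and no peak for ITGA3. In all, 7 of 30 adhesion genes were near TNFα only and 6 near cobimetinib only regions, and for YAP and TEAD genes the counts were 6 and 5 of 20. Within 100 kb the adhesion counts were 8 and 9.

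Within 50 kb, Wnt targets, intestinal genes and keratins had more genes near cobimetinib only than near TNFα only regions, in small numbers. The counts under TNFα and cobimetinib were 1 and 4 of 20 Wnt targets, 4 and 6 of 33 intestinal genes and 7 and 9 of 24 keratin and junction genes. Within 100 kb the order was reversed for keratin and junction genes (13 and 10), and within 20 kb intestinal genes had 2 on each side, whereas Wnt targets kept the order at both distances (0 and 2, 1 and 8). Besides AXIN2, the Wnt targets were ZNRF3, a ubiquitin ligase that removes Frizzled receptors, with ranks of 18708 and 6177 against 46095 and 84090, EPHB2 and BMP4. KRT8, a keratin of simple epithelia, had 3 cobimetinib only regions outside the gene and 1 TNFα only region at a start. OCLN, a tight junction protein, had an intronic region of ranks 9545 and 12349 against no peak and 62937 (adjusted p = 0.0438). ALPP and its neighbor ALPG share the region shown above, so that 2 of the 6 intestinal genes rest on 1 region.

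Cell-cycle genes were found on both sides. Of 23, 6 were near TNFα only (26.1%) and 4 near cobimetinib only regions (17.4%). On the TNFα side were the cyclin gene CCNB1 (3282 and 5198 against 24774 and 21051, adjusted p = 0.0322), CDK2, MDM2, and the inhibitor genes CDKN1A, CDKN2B and CDKN2D. The cobimetinib side held E2F2, the inhibitor gene CDKN1B, with a region at its start, and the antiproliferative genes BTG1 and BTG2. Some of these regions lay closer to other genes. The CDK2 region was 436 bp from a start of DGKA, the CDKN2B region over a start of CDKN2A, and the E2F2 region 2.4 kb from ID3. The CCNB1 region was in an intron of CENPH. The region near BTG1 ranked 6235 and 12818 under cobimetinib with no peak in any TNFα or untreated library (adjusted p = 0.0223). Cytosolic ribosomal protein genes were near cobimetinib only regions in 18 of 86 cases (20.9%) and near TNFα only regions in 7 (8.14%), which is above and below the background. Within 20 kb the cobimetinib share stayed above it (10.5% against 6.97%), but the TNFα share equaled it (6.98% against 6.99%). Genes with a region called by limma numbered 3 in each direction. These genes had a median of 4 merged regions within 50 kb, against 2 for all genes. Lysosome and autophagy genes gave 4 and 1 of 21 (19.0% and 4.76%). PI3K, insulin and FOXO genes gave 1 and 2 of 19 (5.26% and 10.5%), and within 100 kb 5 and 3 (26.3% and 15.8%). Olfactory receptor genes, which are silent in most tissues, gave 11 and 11 of 390, well under the background. Their median number of merged regions of any kind within 50 kb was 0.

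**Figure D4:**
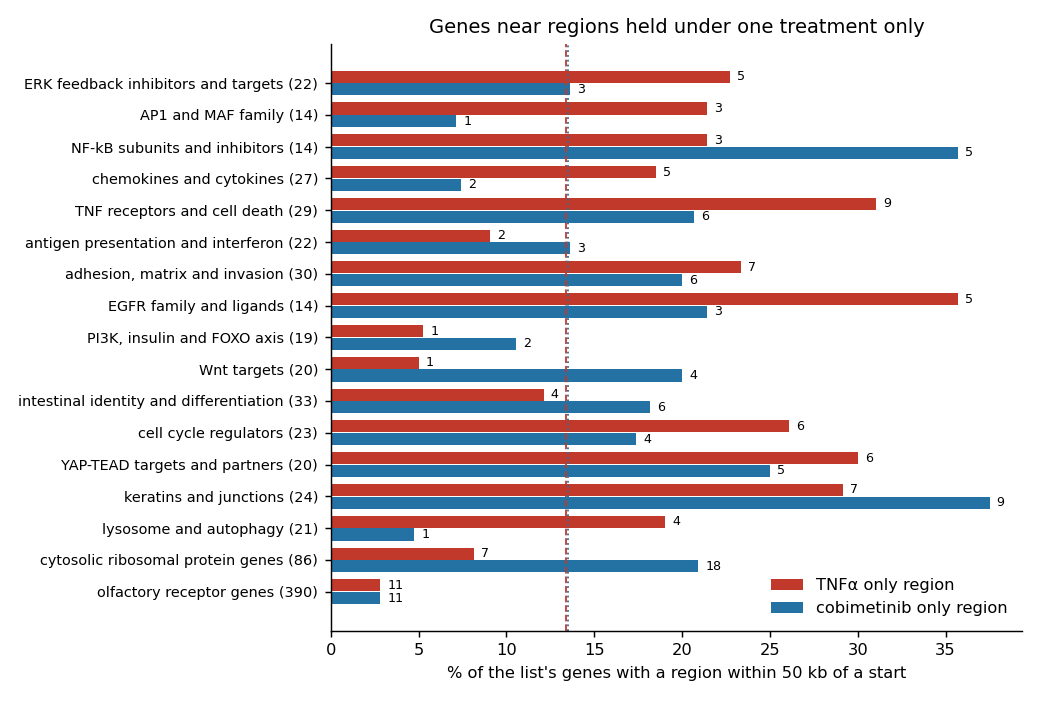
Percent of the genes of each list (x axis) with a TNFα only (red) or cobimetinib only (blue) region within 50 kb of a start, with the number of genes at the end of each bar and the number listed in parentheses. Dashed and dotted lines give the shares of all protein-coding genes (13.4% and 13.5%); lists of few genes move by several percent with 1 gene.

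Several genes gathered more than one region of a side. PHLDB2, HRH1, TRIO and ALPK2 each had 4 TNFα only regions within 50 kb. At PHLDB2 these ranked between 93 and 19328 under TNFα, and 3 of 8 kept regions nearby were also called higher under TNFα, the foremost ranking 65 and 68 against 3031 and 12709 (adjusted p = 0.0110); a single cobimetinib only region in its neighborhood ranked 4704 and 3792 against 20523 and 53300. HRH1 encodes a histamine receptor and TRIO a guanine nucleotide exchange factor, and both also had 1 cobimetinib only region. On the cobimetinib side CSNK1D, a casein kinase of the circadian clock, had 5 regions and no TNFα only region, the strongest ranking 3026 and 2793 against 29023 and 59928 (adjusted p = 0.00966). VPS13D, a lipid transfer protein, had 4 and also 1 TNFα only region, and ANO6, a phospholipid scramblase, had 4 that ranked between 7861 and 14591 under cobimetinib and 20015 and 54742 under TNFα. NOSIP, PRRG2 and PRR12 are neighbors and shared their 4 regions in part, as did CSNK1D and CD7.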

How the data were processed

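H3K27ac was profiled by CUT&RUN in HCT116 cells. Per the study's methods, BBDuk trimmed the reads and BWA 0.7.15 aligned them to hg38, after which they were filtered with samtools for a mapping quality over 10. Peaks were called with MACS2 2.1.1 at a p-value of 0.01 in each library without an IgG background, in paired-end and again in single-end mode, before both lists were merged with bedtools. The deposited score is the authors' peak score, a whole number of at least 20 in every list. From it, ranks were taken within each list, with ties in file order, and the 20000 highest peaks of 4 libraries were merged within 100 bp (pandas 2.3.3, pysam 0.24.0). limma 3.58.1 (R 4.3.3) was fitted to the log2 of the best score of each region, quantile normalized. The fit used a mean-variance trend and Benjamini-Hochberg adjustment over all regions. In 29944 simulated regions it called 200 of 200 made to differ by 3 on the log2 scale and 13 of the others. The simulated regions all had the same spread around their means and no filled-in scores. They therefore do not show how the real calls depend on the variance trend or on filled-in scores. Starts and gene positions were from GENCODE 44, whose hg38 coordinates fit the lists; words were searched in 600 bp of hg38. Intervals are 95% Wilson intervals. Named regions were, for each side, the 10 with the best mean rank, the 10 with the lowest limma p among those with no peak of the other treatment within rank 40000, the 8 genes with most side regions within 50 kb, and listed genes (at most 5 a list). The gene lists (17) and the comparison itself were chosen with earlier results of these data known. Alternatives changed the number of peaks, merging, tie order, absence, normalization, word window and gene distance, left out each library, or added a replicate block.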

Additional observations from a re-analysis of the deposited data

How the results depend on the processing

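TNFα only and cobimetinib only regions numbered 845 and 580 under strict absence, 5864 and 5766 with all deposited peaks, and 2678 and 3185 with 40000 peaks. Without one library, where a single library stands for a treatment, TNFα only regions ranged from 3071 to 4528 (without TNFα replicate 1) and cobimetinib only regions from 2511 to 4182 (without cobimetinib replicate 2). Both exceeded the highest mixed pair under each of these settings that kept 4 libraries, narrowly with all peaks (5235). Counts with 10000 peaks, 50% coverage, no merge distance or reversed ties stayed within 1.5 times. limma calls higher under TNFα and cobimetinib were 515 and 174 without quantile normalization, 1208 and 775 with a peak in all 4 lists, 1228 and 689 on ranks, 0 and 0 without a variance trend, and ranged from 10 to 1839 and from 1 to 1527 without one library. Replicate numbers did not pair the libraries (correlation of deviations 0.033), and the replicate block gave 1996 and 1343 calls, a crossed replicate block, chosen after seeing the data, 1788 and 1140. Start-site shares for TNFα and cobimetinib only regions were 19.9% and 40.2% with 10000 peaks and 6.86% and 13.3% under strict absence, and ranged from 14.1% to 23.1% and from 22.3% to 35.9% without one library, the order of the sides being reversed without cobimetinib replicate 2 (23.1% and 22.3%). AP1 shares were 37.8% and 17.5% in 300 bp, 24.1% (cobimetinib, strict absence) and 37.1% (cobimetinib, 10000 peaks, against 54.6% for TNFα), and ranged from 46.0% to 55.9% and from 27.03% to 32.1%. They stayed higher on the TNFα side in every setting run. NF-κB shares were 6.79% and 4.54% in 300 bp and 12.8% and 7.55% under strict absence. Without one library they ranged from 8.69% to 10.5% for TNFα and from 7.89% to 8.80% for cobimetinib. Their order was reversed without TNFα replicate 1 (8.69% and 8.80%). Genes near a TNFα only or cobimetinib only region numbered 1375 and 1372 within 20 kb and 4432 and 4386 within 100 kb. The causes were not tested, apart from distances, windows and lists that change the counts by construction. The limit throughout is 2 libraries per treatment without read counts.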

Other observations

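Most regions with many AP1 words had a higher score under TNFα, some by little. Of the 29944 merged regions, 32 held at least 5 AP1 words in 600 bp, a limit chosen after the counts were seen. Of these, 5 were TNFα only, 0 were cobimetinib only and 18 were kept. Over all merged regions the shares were 7.06%, 5.7% and 38.1%. A positive score difference was found at 29 of the 32, with a median of 0.73 over the 32 against 0.06 over all distal regions. Most of the 32 were not called by limma. Some differences were small (0.02 nearest to CES1, 0.19 nearest to ANKRD10). Those nearest to APCDD1L (1.07) and at 1 region nearest to SCGB1C2 (0.95) rested on filled-in cobimetinib scores. The WNT9A intron described above held 12. A region of 10 words nearest to DIP2C ranked 12617 and 13171 under TNFα and had no peak under cobimetinib, and a pair of neighboring regions nearest to BRD1, 436 kb and 441 kb from a start, ranked 1078 and 2438 against 25953 and 17118, and 6870 and 11498 against 61541 and 51577. Those with a negative difference were a region of 11 words nearest to TRIML1, which ranked 43902 and 6318 under TNFα and 1279 and 3484 under cobimetinib (-1.67), a region of 11 words nearest to NID1, which ranked 15 and 123 against 4 and 12 (-1.03), and a region nearest to ACO1 (-0.04). The region with most words, 21 and nearest to DBNDD1, ranked 1290 and 2118 under TNFα and 2501 and 5199 under cobimetinib (0.49).

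The shares of side regions differed between chromosomes. On chromosome 21, 31 of 308 merged regions were TNFα only (10.1%) and 8 cobimetinib only (2.60%), whereas on chromosome 19 the order was reversed, with 68 (4.64%) and 89 (6.07%) of 1466. It was also reversed on chromosomes 16 (5.37% and 6.15%) and 17 (5.5% and 6.33%). The counts on chromosome 21 are small, and the spread between chromosomes was not tested. One kept region lay on the mitochondrial genome, over MT-ND1, and ranked 9 and 63 under cobimetinib against 1177 and 7185 under TNFα and 1437 and 1058 in untreated cells. Peaks were called without an IgG background. The origin of this mitochondrial signal was not tested, and it is not read here as histone acetylation.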
